A study of Homo sapiens with 10 samples.

Results

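The members are the 46 protein-coding genes whose symbols are PSMA, PSMB, PSMC, PSMD, PSME, PSMF or PSMG followed by a number, out of 61533 genes in the count tables. They were found by symbol through the Ensembl identifiers, and the inducible core subunits PSMB8 and PSMB9 were left out by the rule. T24 is a cell line from a human bladder cancer, and T24R2 was derived from it by serial desensitization with cisplatin. RNA-seq covered 5 libraries of each line, all from day 3 of culture. T24R2 was maintained in cisplatin according to the methods of the study, whereas the sample labels list the same drug-free RPMI medium with serum for both lines, so the line and drug exposure cannot be told apart. T24R2 is a single derivative of a single line. Nothing in the labels says that the replicates came from separate cultures, so p-values measure the spread between these libraries, which may be technical.

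The proteasome degrades proteins that carry ubiquitin chains. Its barrel-shaped core is built of outer alpha rings, which gate the entry, and inner beta rings, which hold the protease sites. A cap binds the ubiquitin chain, unfolds the substrate with a ring of ATPases and feeds it into the core, and other activators can take the place of the cap. Dedicated chaperones assemble the rings and the base of the cap. NFE2L1 and related transcription factors raise the transcription of many proteasome genes when proteasome activity falls, through antioxidant response elements in their promoters.

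Fragments per gene were expressed as CPM, counts relative to a TMM-scaled library size. Total counts ranged from 9257843 to 10840954, and a count of 3, taken as the floor of detection, was worth 0.260 to 0.343 CPM. A log2 fold change (log2FC) is T24R2 against T24, and its adjusted p comes from the quasi-likelihood test of edgeR after Benjamini-Hochberg correction over all 16181 genes tested. A gene was called at an adjusted p-value under 0.05 with an absolute log2FC over 0.5. Values are given as mean ± SD of 5 libraries, and coordinates are those of the count tables (hg38). An exact two-sided permutation test of CPM gave 0.00794, the smallest p that 5 against 5 libraries allow, for each of the 10 members called.

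Of the 46 members, 43 passed the filter on low counts. PSMA2 (a core alpha subunit), PSMA8 (an alpha subunit known from testis) and PSMB11 (a beta subunit known from thymus) did not. PSMA8 had 0 counts in every library, which allows a level of up to 0.343 CPM. In T24R2, 4 members were called higher and 6 lower. PSME3, PSMC2, PSMB6 and PSMB4 rose, with log2FC of 0.82, 0.76, 0.54 and 0.53. PSMD2, PSMA1, PSMC3, PSMB10, PSMD13 and PSMF1 fell, with log2FC of -1.24, -0.98, -0.92, -0.84, -0.81 and -0.65. The calls fell in 5 of the 7 structural groups and in no single direction. In bulk RNA, fewer transcripts per cell and fewer cells with the transcript cannot be told apart.

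The 10 calls were 23.3% of the members tested, against 51.4% of all genes tested, and 24.9% of all genes were called higher and 26.5% lower. By adjusted p alone, 34 members passed (79.1%; all genes 75.5%), 18 higher and 16 lower. That split depended on the scaling, with 25 higher and 9 lower with library size only and 21 and 10 with upper-quartile scaling. The libraries of the lines did not overlap in CPM for 29 members (67.4%; all genes 61.2%). The median log2FC was 0.09 over the members and 0.01 over all genes tested. The median absolute log2FC was 0.35 over the members and 0.54 over all genes.

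Directions near 0 depended on the scaling. Scaling by library size only shifted the median log2FC of all genes by 0.163 and gave 13 members called higher and 5 lower, against 4 and 6 with TMM. Upper-quartile scaling gave 9 and 6. With library size only, 8 members changed sign, all of them uncalled: PSMA3, PSMB2, PSMB3, PSMB7, PSMC5, PSMD10, PSME1 and PSME2. The 4 members called higher kept their calls under every scaling, and of the 6 called lower only PSMF1 fell under the fold minimum with library size only (log2FC -0.49).

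**Figure D1:**
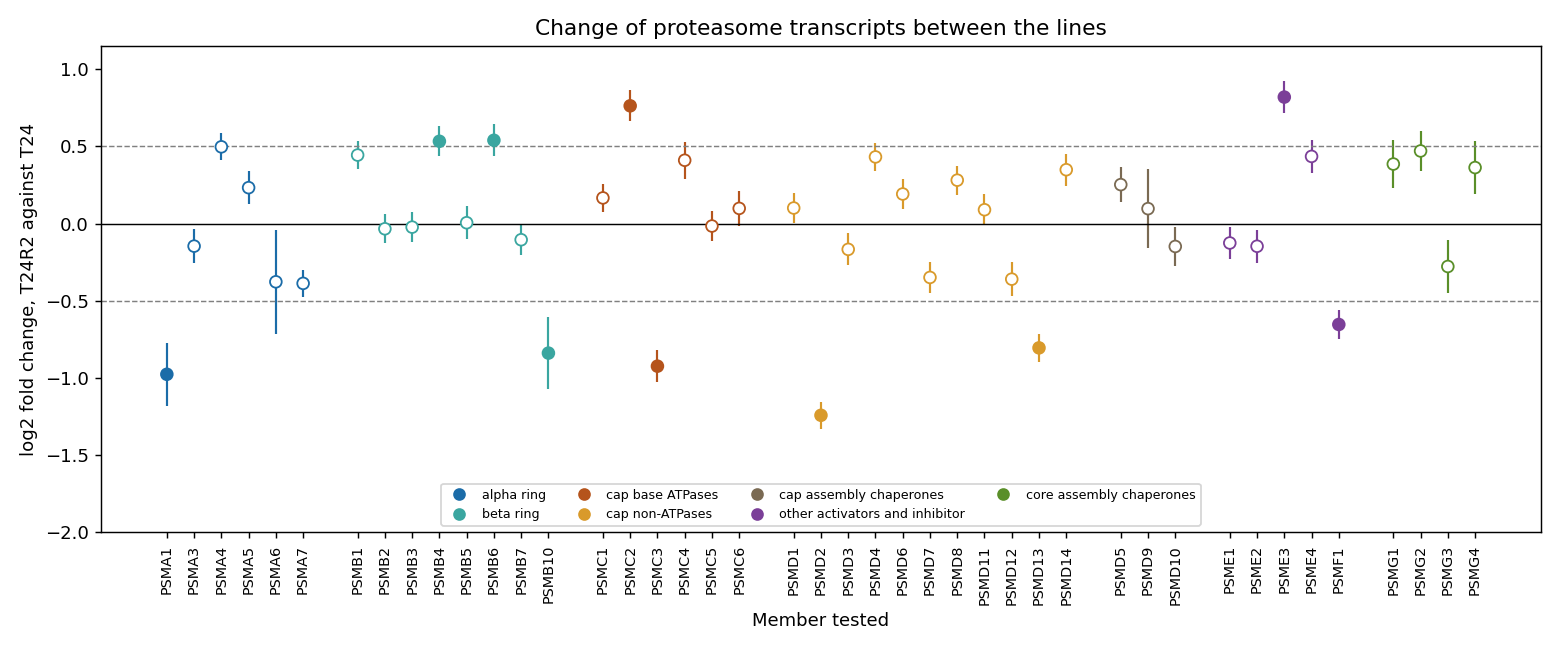
log2 fold change of T24R2 against T24 for the 43 members tested, by structural group; bars are 2 standard errors, filled points are called and dashed lines mark the fold minimum of 0.5. The called members PSME3 (0.82) and PSMD2 (-1.24) are the extremes, and 33 of the 43 points lie between the dashed lines.

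The alpha ring was the group with the lowest median (log2FC -0.26 over 6 tested of 8; -0.10 with library size only). That median includes PSMA1 (-0.98) and PSMA6 (-0.38), which were counted only outside exons shared with a same-strand gene. PSMA3 (-0.15), PSMA4 (0.4965), PSMA5 (0.23) and PSMA7 (-0.39) had no such overlap, and no median was taken over these alone. Of the 6, 1 was called lower and 0 higher (16.7%; all genes 51.4%), and by adjusted p 2 passed higher and 4 lower (all genes 75.5% in either direction). With library size only and with upper-quartile scaling, 1 was called each way, PSMA4 being the rise, and 2 passed each way. PSMA1, an alpha ring subunit (ENSG00000129084.18, chr11:14504874-14643635, minus strand), was at 29.4, 33.5, 28.0, 33.9 and 30.7 CPM in T24 replicates 1 to 5 and 16.1, 18.1, 11.0, 17.8 and 15.6 CPM in T24R2 replicates 1 to 5. All 5 T24R2 libraries were below all 5 T24 libraries (31.1 ± 2.55 CPM in T24 and 15.8 ± 2.84 CPM in T24R2; log2FC -0.98, SE 0.101, edgeR adjusted p = 3.19e-11). PSMA1 shared 26.7% of its exon bases, and 67.0% of its canonical transcript, with an unnamed protein-coding gene on the same strand. No option to count a fragment for more than 1 gene stands in the file headers, so fragments that lie in both genes were left uncounted by the default of the counter, and the part of this in the fall of PSMA1 was not tested.

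PSMA4, also an alpha ring subunit (ENSG00000041357.16, chr15:78540405-78552417, plus strand), was the highest of the ring by log2FC. It was at 169.8, 168, 164, 154 and 163 CPM in T24 replicates 1 to 5 and 227, 231, 234, 226 and 238 CPM in T24R2 replicates 1 to 5. The libraries did not overlap, but the log2FC of 0.4965 lay just under the minimum, so it was not called (SE 0.044, edgeR adjusted p = 4.31e-13). PSMB4, at 0.5325, was the member just over it. Of the rest of the ring, PSMA5 passed the adjusted p higher (0.23), and PSMA3 (-0.15), PSMA6 (-0.38) and PSMA7 (-0.39) passed it lower. Neither PSMA3 nor PSMA6 passed with library size only, where PSMA3 changed sign, or with upper-quartile scaling. PSMA7 was the most abundant member per length, with 399 ± 13.6 in T24 and 305 ± 15.8 in T24R2 CPM per kilobase of its canonical transcript.

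PSMA2 and PSMA6, constitutive alpha subunits, had low counts. PSMA2 had 4 to 19 counts per library, and its whole canonical transcript was shared with an unnamed same-strand protein-coding gene that itself had at most 0.2 counts per library on average. PSMA6 shared 81.4% of its canonical transcript and was at 6.74 ± 1.40 CPM in T24 and 5.17 ± 0.514 CPM in T24R2. Only fragments outside the shared exons could be counted for PSMA1, PSMA2 and PSMA6, so their counts understate the level of these transcripts. PSMB10 (56.1% shared) and the cap chaperone PSMD9 (28.8% shared) had the same kind of overlap. Without these 5 members, 4 of 39 tested were called higher and 4 lower (20.5%).

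The beta ring held 2 of the 4 rises, and its median log2FC was -0.01 over 8 tested of 9 (0.15 with library size only). PSMB1 was a further call higher with library size only and with upper-quartile scaling. PSMB6, which carries the caspase-like protease site (ENSG00000142507.10, chr17:4796144-4798502, plus strand), was at 87.3, 93.7, 81.5, 84.4 and 93.3 CPM in T24 replicates 1 to 5 and 136, 127, 122, 125 and 130.2 CPM in T24R2 replicates 1 to 5. PSMB4, a beta subunit without a protease site (ENSG00000159377.11, chr1:151399560-151401937, plus strand), was at 160.4, 151, 144, 149 and 139 CPM in T24 replicates 1 to 5 and 213, 233, 215, 215 and 199 CPM in T24R2 replicates 1 to 5. For both, the lowest T24R2 library was above the highest T24 library. PSMB6 rose from 88.0 ± 5.41 to 128 ± 5.24 CPM (log2FC 0.54, SE 0.051, edgeR adjusted p = 3.33e-12). PSMB4 rose from 149 ± 8.01 to 215 ± 12.1 CPM (log2FC 0.53, SE 0.048, edgeR adjusted p = 8.70e-13).

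The other constitutive protease subunits did not pass with TMM. PSMB5, which carries the chymotrypsin-like site (ENSG00000100804.19, chr14:23016543-23035230, minus strand), was at 112, 122, 106, 107 and 111 CPM in T24 replicates 1 to 5 and 119, 112, 97.5, 117 and 115 CPM in T24R2 replicates 1 to 5. Its libraries overlapped, and the difference was smaller than its standard error (log2FC 0.0049, SE 0.054, edgeR adjusted p = 0.938; exact permutation p = 0.952). PSMB5 passed higher with library size only (log2FC 0.17, edgeR adjusted p = 0.00522). PSMB7, which carries the trypsin-like site (ENSG00000136930.13, chr9:124353465-124415444, minus strand), was at 182, 193, 182, 184 and 169 CPM in T24 replicates 1 to 5 and 174, 183, 147, 171 and 169 CPM in T24R2 replicates 1 to 5. Its libraries overlapped too (log2FC -0.11, SE 0.051, edgeR adjusted p = 0.0591; exact permutation p = 0.111), and its log2FC turned to 0.06 with library size only. With DESeq2 size factors PSMB7 passed lower (edgeR adjusted p = 0.048). Among the 3 constitutive protease subunits, PSMB6 alone was called, and the differences between them were not tested.

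PSMB10, the inducible subunit that takes the place of PSMB7 in the immunoproteasome (ENSG00000205220.12, chr16:67934506-67936864, minus strand), was at 21.4, 18.1, 22.2, 21.9 and 14.6 CPM in T24 replicates 1 to 5 and 10.6, 10.2, 10.7, 10.9 and 12.5 CPM in T24R2 replicates 1 to 5. It fell to 55.9% of T24 (log2FC -0.84, SE 0.12, edgeR adjusted p = 2.78e-08), with the spread in T24 wider than in T24R2. The other inducible subunits were left out by the rule and are given beside it. PSMB9 was called lower with TMM, from 28.1 ± 1.88 to 18.8 ± 1.47 CPM (log2FC -0.58, SE 0.087, edgeR adjusted p = 1.94e-07). This call lay close to the fold minimum, and its value under the other scalings is not given. PSMB8 went from 35.5 ± 3.25 to 43.1 ± 3.88 CPM and passed the adjusted p without reaching the fold minimum (log2FC 0.28, SE 0.075, edgeR adjusted p = 0.00114). The remaining beta subunits were PSMB1, which passed the adjusted p higher (0.44), and PSMB2 and PSMB3, which did not pass (-0.03 and -0.02) but passed higher with library size only. PSMB11 had 2 counts in 1 T24 library and 0 in the others.

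**Figure D2:**
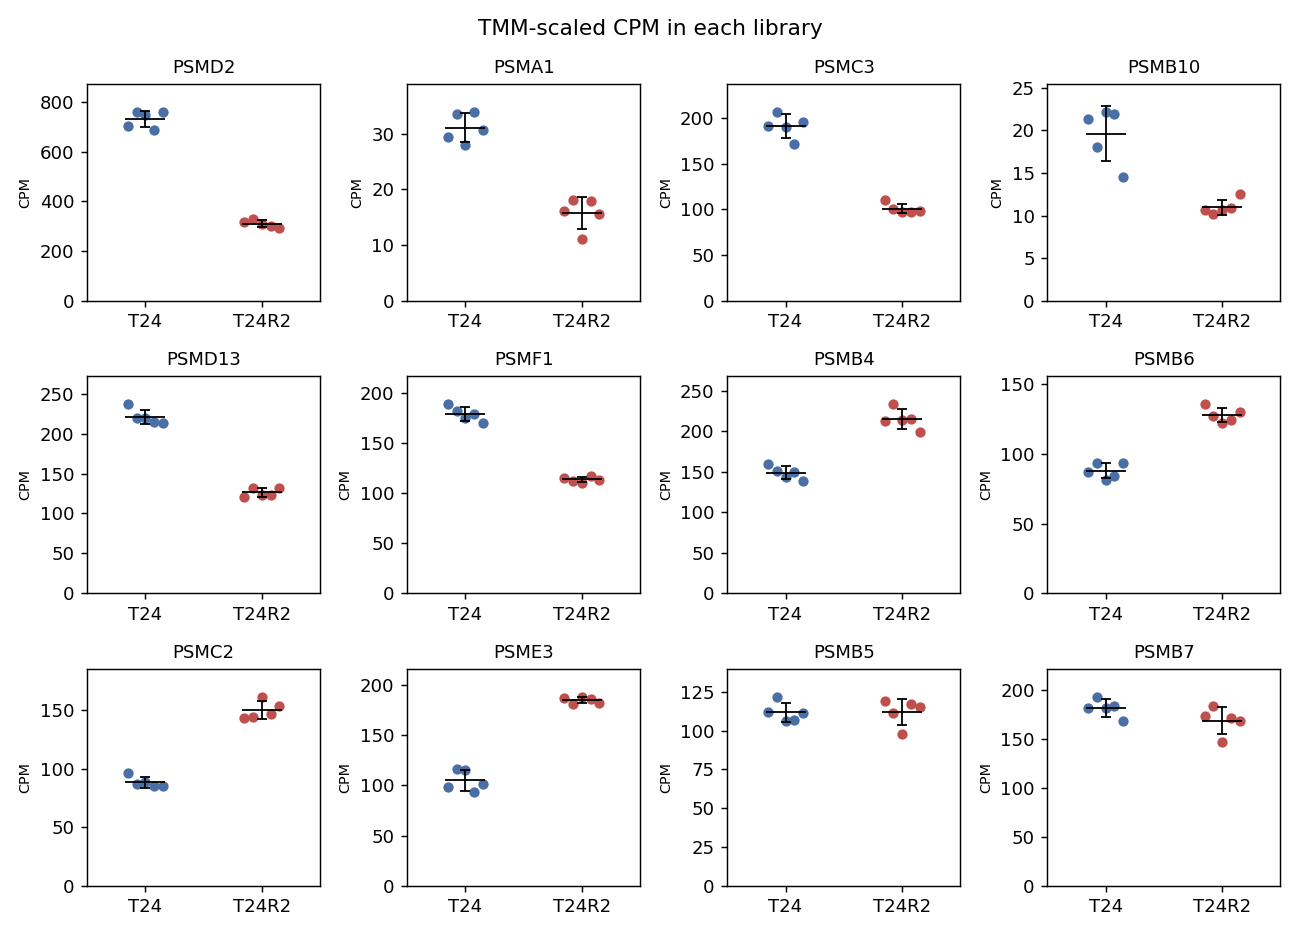
TMM-scaled CPM in each of the 5 T24 and 5 T24R2 libraries for the 10 members called and for the uncalled protease subunits PSMB5 and PSMB7; horizontal bars are means and error bars SD, on axes that start at 0. In the 10 called members the lines do not overlap, and in PSMB5 and PSMB7 they do.

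The ATPase ring at the base of the cap held a rise and a fall. PSMC2 (ENSG00000161057.13, chr7:103328570-103370346, plus strand) and PSMC3 (ENSG00000165916.9, chr11:47418769-47426473, minus strand) are both among its 6 ATPases, which unfold the substrate. PSMC2 was at 96.0, 86.9, 88.8, 85.5 and 84.9 CPM in T24 replicates 1 to 5 and 143, 145, 162, 147 and 154 CPM in T24R2 replicates 1 to 5. All T24R2 libraries were above all T24 libraries (88.4 ± 4.50 CPM in T24 and 150.0 ± 7.66 CPM in T24R2; log2FC 0.76, SE 0.051, edgeR adjusted p = 8.56e-17). PSMC3 was at 191, 206, 190.1, 172 and 196 CPM in T24 replicates 1 to 5 and 109.8, 101, 97.5, 97.5 and 97.8 CPM in T24R2 replicates 1 to 5. It went the other way, to 52.7% of T24 (191 ± 12.6 CPM in T24 and 101 ± 5.29 CPM in T24R2; log2FC -0.92, SE 0.051, edgeR adjusted p = 2.40e-19).

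PSMC1 (0.17) and PSMC4 (0.41) passed the adjusted p higher, and PSMC5 (-0.02) and PSMC6 (0.10) did not pass. With library size only, PSMC4 was called higher and PSMC5 and PSMC6 passed higher, as PSMC6 did with upper-quartile scaling. The median of the 6 ATPases was 0.13 (0.30 with library size only). PSMC1 shared 76.1% of its exon bases with NRDE2 on the opposite strand, and the library kit is not described as marking strand, so reads of the pair cannot be told apart. PSMC5 shared 15.3% with FTSJ3 in the same way.

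In the rest of the cap, 2 of 11 subunits were called (18.2%; all genes 51.4%), both lower, and the median log2FC was 0.09 (0.25 with library size only). This one-sided count held with TMM and DESeq2 size factors, whereas PSMD4 (0.59) and PSMD14 (0.51) were called higher with library size only and PSMD4 (0.51) with upper-quartile scaling. PSMD2, the scaffold of the base that docks ubiquitin receptors and shuttle proteins (ENSG00000175166.17, chr3:184299198-184309050, plus strand), was at 704, 760.0, 749, 690.3 and 761 CPM in T24 replicates 1 to 5 and 316, 329, 309, 302 and 294 CPM in T24R2 replicates 1 to 5. It was the largest change among the members, to 42.3% of T24 (733 ± 33.4 CPM in T24 and 309.8 ± 13.6 CPM in T24R2; log2FC -1.24, SE 0.043, edgeR adjusted p = 5.96e-26). It was the most counted member in T24, and 1 of the 2 scaffolds of the base. The other, PSMD1, did not pass with TMM (0.10) and passed higher with upper-quartile scaling (0.17) and with library size only (0.26).

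PSMD13, a subunit of the lid (ENSG00000185627.19, chr11:236966-252984, plus strand), was at 237, 219, 219.5, 215 and 214 CPM in T24 replicates 1 to 5 and 121, 132, 124, 123 and 132 CPM in T24R2 replicates 1 to 5. Its T24 libraries were all above its T24R2 libraries (221 ± 9.24 CPM in T24 and 126 ± 5.51 CPM in T24R2; log2FC -0.81, SE 0.046, edgeR adjusted p = 9.89e-19). PSMD4, a ubiquitin receptor of the cap (ENSG00000159352.16, chr1:151254709-151267479, plus strand), had the highest log2FC of the group and was not called with TMM. It was at 118, 116, 111, 109.8 and 112 CPM in T24 replicates 1 to 5 and 157, 147, 155, 148 and 156 CPM in T24R2 replicates 1 to 5 (log2FC 0.43, SE 0.047, edgeR adjusted p = 9.58e-11), and the libraries did not overlap. PSMD14, the deubiquitinase that removes the chain, passed the adjusted p higher (0.35), whereas its partner PSMD7 passed lower (-0.35). Higher by adjusted p were also PSMD6 (0.19) and PSMD8 (0.28), and lower were PSMD3 (-0.17) and PSMD12 (-0.36). PSMD11 (0.09) did not pass. PSMD11 passed higher, and PSMD3 did not pass, with library size only and with upper-quartile scaling. PSMD7 shared 31.2% of its exon bases with an opposite-strand gene.

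The promoters of the 3 cap genes that fell are shown to compare their sequence. They are the 100 bases upstream of the gene in the count tables, 5′ to 3′ on the strand of the gene, from RefSeq promoters on GRCh38.p14. Capitals mark a CCAAT box, the only match in these windows among the 4 motifs described further on.
PSMD2, chr3:184299098-184299197, plus strand: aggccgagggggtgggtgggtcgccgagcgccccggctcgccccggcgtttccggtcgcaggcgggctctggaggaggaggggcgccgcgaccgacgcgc
PSMC3, chr11:47426474-47426573, minus strand: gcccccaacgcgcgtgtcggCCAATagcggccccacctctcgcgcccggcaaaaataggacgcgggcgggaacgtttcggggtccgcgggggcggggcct
PSMD13, chr11:236866-236965, plus strand: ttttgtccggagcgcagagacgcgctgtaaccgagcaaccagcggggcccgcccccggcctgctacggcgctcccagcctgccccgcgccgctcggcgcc
All 3 were rich in G and C (81.0%, 74.0% and 76.0%). One of them, PSMC3, held the CCAAT box.

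Summed over its members, the core stood at 1752 ± 44.3 CPM in T24 and 1852 ± 35.6 CPM in T24R2. Its libraries did not overlap between the lines, by a narrow margin (1711 to 1813 and 1817 to 1889 CPM). The sum in T24R2 was 106% of T24, or 118% with library size only. The rings differed with TMM: the alpha ring was at 95.7% of T24 (107% with library size only) and the beta ring at 114% (127%). PSMA1, PSMA2, PSMA6 and PSMB10 enter these sums only outside the exons they share. The cap subunits stood at 2755 ± 87.5 CPM in T24 and 2313 ± 32.9 CPM in T24R2, which was 83.9% of T24 (94.0% with library size only). Without PSMD2, the cap subunits were at 99.1% of T24 (111% with library size only). Over all members the sum was 94.6% of T24 with TMM and 106% with library size only, so its direction was not fixed by these data.

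Of the chaperones that build the base of the cap, 0 of 3 were called, against 51.4% of all genes tested. PSMD5 (ENSG00000095261.14, chr9:120815496-120842951, minus strand) was at 59.3, 59.3, 61.5, 64.6 and 62.0 CPM in T24 replicates 1 to 5 and 70.5, 69.9, 71.5, 78.3 and 75.0 CPM in T24R2 replicates 1 to 5 (log2FC 0.25, SE 0.056, edgeR adjusted p = 1.18e-04). PSMD10, also known as an oncoprotein in liver (ENSG00000101843.19, chrX:108084207-108091549, minus strand), was at 54.5, 57.0, 56.0, 59.0 and 60.9 CPM in T24 replicates 1 to 5 and 51.0, 53.8, 46.2, 53.9 and 54.3 CPM in T24R2 replicates 1 to 5 (log2FC -0.15, SE 0.062, edgeR adjusted p = 0.029), but PSMD10 did not pass with upper-quartile scaling or with library size only, where its log2FC turned to 0.02. The libraries of the lines did not overlap in either gene, in PSMD10 by a narrow margin. PSMD9 did not pass (0.10), at 9.63 ± 1.40 CPM in T24 and 10.3 ± 0.628 CPM in T24R2.

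Among the chaperones that build the alpha ring, 0 of 4 were called with TMM (all genes 51.4%). By adjusted p, 3 passed higher and 1 lower, where 75.5% of all genes passed in either direction. PSMG2 (ENSG00000128789.21, chr18:12658043-12725740, plus strand) was at 48.4, 40.9, 40.7, 45.0 and 38.8 CPM in T24 replicates 1 to 5 and 60.6, 58.4, 58.8, 59.3 and 59.1 CPM in T24R2 replicates 1 to 5 (log2FC 0.47, SE 0.064, edgeR adjusted p = 2.54e-08). Its partner PSMG1 passed higher as well (0.39). PSMG3 (ENSG00000157778.9, chr7:1567332-1571005, minus strand) was at 26.4, 25.4, 23.5, 27.4 and 23.7 CPM in T24 replicates 1 to 5 and 22.9, 21.6, 19.8, 19.4 and 20.5 CPM in T24R2 replicates 1 to 5 (log2FC -0.28, SE 0.087, edgeR adjusted p = 0.00409), whereas its partner PSMG4 passed higher (0.36), with 13.3% of its exon bases shared with SLC22A23 on the opposite strand. With library size only, PSMG3 did not pass (-0.11, edgeR adjusted p = 0.225) and the 3 higher genes were called. PSMG2 was also called with upper-quartile scaling (0.54) and with a mean of at least 100 counts (0.5002). The libraries of the lines did not overlap in any of the 4 genes, as in 61.2% of all genes tested. Summed, they stood at 116 ± 5.78 CPM in T24 and 143 ± 4.03 CPM in T24R2, or 123% of T24 (137% with library size only).

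The activators that replace the cap, and the inhibitor PSMF1, showed both the largest rise and a fall. PSME3, which forms a nuclear activator ring (ENSG00000131467.12, chr17:42824385-42843760, plus strand), was at 98.4, 116, 116, 93.0 and 102 CPM in T24 replicates 1 to 5 and 187, 182, 188, 187 and 182 CPM in T24R2 replicates 1 to 5. The T24R2 libraries lay within a narrow range above all T24 libraries (105 ± 10.4 CPM in T24 and 185 ± 3.07 CPM in T24R2; log2FC 0.82, SE 0.053, edgeR adjusted p = 3.41e-17). PSMF1, which binds the core and inhibits it in vitro (ENSG00000125818.18, chr20:1113240-1189415, plus strand), was at 189, 182, 175, 179 and 170.2 CPM in T24 replicates 1 to 5 and 115, 113, 110.1, 117 and 113 CPM in T24R2 replicates 1 to 5. It fell to 63.6% of T24 (179 ± 7.02 CPM in T24 and 114 ± 2.57 CPM in T24R2; log2FC -0.65, SE 0.046, edgeR adjusted p = 5.29e-16).

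PSME4, a large nuclear activator, passed the adjusted p higher (0.43) and was called with library size only (0.60) and upper-quartile scaling (0.51). PSME1 and PSME2, which form the interferon-inducible activator ring together, passed it lower with TMM (-0.13 and -0.15), but neither passed with upper-quartile scaling or with library size only, where both changed sign. The median of the 5 genes was -0.13 (0.04 with library size only).

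To compare levels between members, CPM was divided by the length of the canonical transcript (GENCODE release 44) in kilobases. Over the 39 members with at most 10% of that transcript shared with a same-strand gene, the level ran from 10.3 (PSME4) to 399 (PSMA7) in T24, with a median of 52.4. In T24R2 it ran from 13.3 (PSMD12) to 305 (PSMA7), with a median of 65.4. PSMD2 was the 2nd of all members in T24 and the 12th in T24R2, with 251.6 ± 11.5 in T24 and 106 ± 4.65 in T24R2. PSMC3 went from the 10th to the 20th place (124 ± 8.20 in T24 and 65.4 ± 3.44 in T24R2), and PSMB4 from the 5th to the 2nd (162 ± 8.73 in T24 and 234 ± 13.2 in T24R2). Within the alpha ring, whose subunits stand in the complex in equal number, PSMA5 was at 23.9 ± 1.07 in T24 and 28.0 ± 1.78 in T24R2, far below PSMA7 in both lines. These levels depend on the transcript chosen, and a gene whose cells use a shorter transcript is understated.

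**Figure D3:**
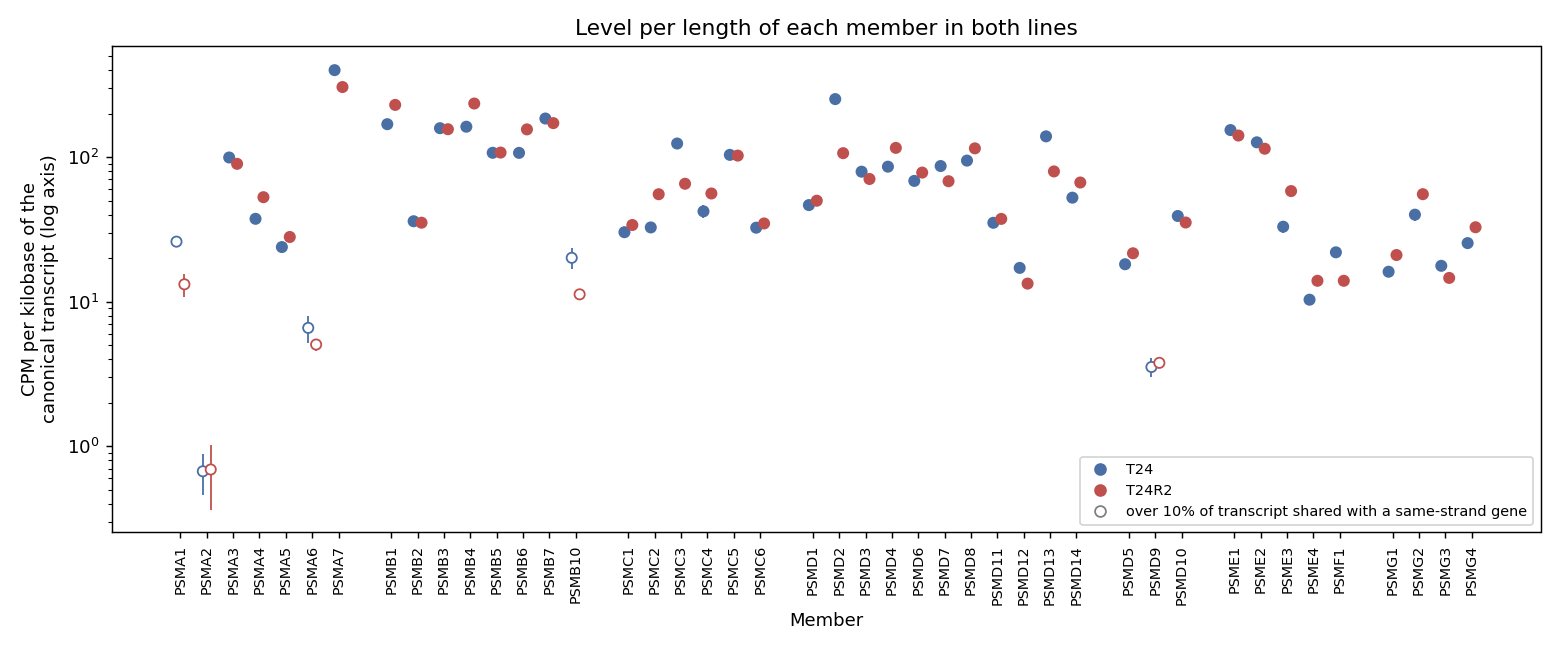
CPM per kilobase of the canonical transcript for 44 members in both lines, on a log axis, with SD bars; open points share over 10% of that transcript with a gene on the same strand. PSMA7 is the highest in both lines, PSMD2 is at 251.6 in T24 and 106 in T24R2, and the open points PSMA2, PSMA6 and PSMD9 are the lowest.

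Of 10 regulators of proteasome genes, 7 were called, 3 higher and 4 lower, against the 51.4% of all genes. NFE2L3, a relative of NFE2L1, was at 136, 138, 133, 136 and 131 CPM in T24 replicates 1 to 5 and 21.4, 22.3, 22.4, 21.8 and 19.9 CPM in T24R2 replicates 1 to 5. It fell to 16.0% of T24 (log2FC -2.65, SE 0.058, edgeR adjusted p = 7.70e-33). NFE2L2, the oxidative stress factor that also binds these elements, was at 96.2, 97.6, 98.2, 102 and 100.1 CPM in T24 replicates 1 to 5 and 259, 265, 318, 282 and 277 CPM in T24R2 replicates 1 to 5. It rose to 283% of T24 (log2FC 1.50, SE 0.051, edgeR adjusted p = 2.25e-26). BACH1, a repressor that binds the same elements, fell from 202 ± 7.09 to 98.3 ± 6.06 CPM (log2FC -1.04, SE 0.049, edgeR adjusted p = 1.24e-21).

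NFE2L1 itself, KEAP1 (the adaptor that marks NFE2L2 for degradation), and MAFF and MAFK (partners of these factors on DNA) were also called. They are named here because the list of regulators is short, after their values were seen. NFE2L1 rose from 374 ± 4.25 to 531 ± 18.4 CPM (log2FC 0.51, SE 0.040, edgeR adjusted p = 2.42e-14), close to the fold minimum. KEAP1 rose (0.73), and MAFF (-0.83) and MAFK (-0.59) fell, MAFK under the fold minimum with library size only (-0.42). NFE2L3 shared 28.1% of its exon bases with HNRNPA2B1 on the opposite strand, and NFE2L2 shared 18.6% with a non-coding gene on the same strand. MAFK shared 18.1% with TMEM184A (log2FC -0.83) on the opposite strand, and the part of this in its fall was not tested.

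The core of the antioxidant response element was searched as TGACNNNGC on both strands in the RefSeq promoters (300 bases, 250 before and 50 after a start) of the members. Of 46 members, 40 had an entry, with 48 promoters in all, and PSMA7, PSMB1, PSMB6, PSMB7, PSMD4 and PSMG3 had none. The core matched in 14 of the 48 promoters (29.2%), and in 13.3% of 35116 promoters of all genes. PSMA4, PSMC5, PSME2 and PSMG2 held a match upstream of the start but inside the gene of the count tables, and are not shown. The windows below surround a match upstream of the start and outside that gene. They run 5′ to 3′ on the strand of the gene, with the 9 matched letters in capitals, and show how the flanks differ.
PSMB3, chr17:38752622-38752660, plus strand: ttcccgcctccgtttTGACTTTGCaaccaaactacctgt
PSMD3, chr17:39980755-39980793, plus strand: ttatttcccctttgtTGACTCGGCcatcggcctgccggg
PSMD5, chr9:120843033-120843071, minus strand: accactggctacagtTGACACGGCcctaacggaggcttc
PSMD12, chr17:67366719-67366757, minus strand: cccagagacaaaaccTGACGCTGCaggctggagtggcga
PSMD9, chr12:121888673-121888711, plus strand: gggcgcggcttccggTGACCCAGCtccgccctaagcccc
PSME1, chr14:24136093-24136131, plus strand: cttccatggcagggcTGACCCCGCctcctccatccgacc
PSME4, chr2:53971004-53971042, minus strand: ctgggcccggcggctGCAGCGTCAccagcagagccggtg
PSMG1, chr21:39183611-39183649, minus strand: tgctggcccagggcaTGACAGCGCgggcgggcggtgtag
In this set, PSME4 has the match on the other strand, where it reads as the reverse complement. PSMD9 held a second match, also upstream.

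The 14 tested members with a match had a median log2FC of 0.10, from -0.36 to 0.50, and 0 of them were called with TMM. The 23 tested members with a promoter but no match had a median of 0.00494, from -1.24 to 0.82, and 9 of them were called. Of all genes tested, 51.4% were called, a share that neither set reached. That contrast depended on the scaling. With library size only, 5 of the 14 (PSMA4, PSMC4, PSME4, PSMG1 and PSMG2) and 10 of the 23 were called, and with upper-quartile scaling 3 and 9. This is a description of which members moved, with no test, and a match does not show binding. The other motifs searched on both strands were CCAAT (39.6% of member promoters, 34.6% of all), the ETS site CCGGAAG (31.2% and 10.3%) and the YY1 site AAGATGGC (12.5% and 2.89%), none of which contains another. With TMM, members called were found with and without the CCAAT box (3 with, 6 without) and with and without the ETS site (3 and 6). The median G and C content was 62.2% in member promoters and 58.7% in all promoters.

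Other genes of the pathway were read from lists of accessory subunits and factors (13), ubiquitin genes and the enzymes that activate ubiquitin (6), and shuttle proteins with the segregase VCP and its cofactors (12). With the 10 regulators, 15 of 41 were called (36.6%), against 51.4% of all genes tested. With TMM 6 were higher and 9 lower, and with library size only 9 were higher and 6 lower, so neither direction prevailed under every scaling. USP14, a deubiquitinase of the cap, was at 82.1, 81.7, 83.0, 83.9 and 80.4 CPM in T24 replicates 1 to 5 and 164, 176, 186, 180.2 and 183 CPM in T24R2 replicates 1 to 5. It rose to 217% of T24 (log2FC 1.11, SE 0.049, edgeR adjusted p = 9.89e-23). TXNL1, a thioredoxin bound to the cap, rose from 52.0 ± 2.71 to 90.4 ± 6.16 CPM (log2FC 0.80, SE 0.059, edgeR adjusted p = 2.01e-15). PAAF1, a chaperone of the base of the cap, fell from 37.1 ± 2.04 to 17.0 ± 1.89 CPM (log2FC -1.13, SE 0.086, edgeR adjusted p = 6.14e-15).

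POMP, a chaperone needed for assembly of the core, fell from 119 ± 6.53 to 72.8 ± 5.83 CPM (log2FC -0.71, SE 0.056, edgeR adjusted p = 1.38e-14). It is named after its values were seen, as the fourth call of the accessory list. The other 9 accessory genes were not called with TMM, among them the ubiquitin receptor ADRM1 (0.05) and the lid subunit SEM1 (0.16), both of which passed higher with library size only. ADRM1 shared 11.4% of its exon bases with LAMA5 (log2FC -1.33) on the opposite strand, and the part of this in its value was not tested. Among the ubiquitin genes, UBA6, an activating enzyme, fell from 133 ± 4.64 to 85.1 ± 3.60 CPM (log2FC -0.65, SE 0.049, edgeR adjusted p = 5.69e-15), and the main activating enzyme UBA1 did not pass (0.04). UBA6 was under the fold minimum (-0.48) and UBA1 passed higher (0.20) with library size only. Of the shuttles and segregase genes, NUB1 rose (0.57) and the VCP cofactors NPLOC4 (-0.81) and NSFL1C (-0.64) fell, while VCP passed the adjusted p lower without a call (-0.24). NSFL1C was likewise under the minimum there (-0.47), and VCP did not pass (-0.08).

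The members lie on 17 chromosomes. The 3 members on chromosome 11, PSMA1, PSMC3 and PSMD13, were called lower, each by over 0.5, where 51.6% of the 924 genes tested on that chromosome were called lower and their median log2FC was -0.55. On chromosome 20, PSMF1 was called lower and PSMA7 passed lower, beside a median of -0.44 and 45.6% of genes called lower. On chromosome 14, which holds 8 members, 0 of the 7 tested were called and the median of all genes was 0.02. Of the genes tested there, 18.2% were called higher and 21.2% lower. On chromosome 17, which holds 7, PSMB6 and PSME3 were called higher beside a median of -0.10, with 20.6% of genes called higher and 31.2% lower.

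Tested genes with midpoints within 1 Mb of a called member were read as well. The 24 around PSMC2 had a median log2FC of 0.79, beside 0.76 for PSMC2. The 26 around PSMC3 had -0.72, the 46 around PSMD13 -0.95, the 23 around PSMF1 -0.66 and the 5 around PSMA1 -0.59. The neighbours of these 5 members thus had medians of the same sign as the member, with only 5 genes behind that of PSMA1. Those of PSMB4 (45 genes, 0.37), PSMB6 (51, 0.17), PSMB10 (55, -0.21) and PSMD2 (23, -0.45) had the same sign as well. The median was smaller in size than the change of the member for PSMB4, PSMB6, PSMB10 and PSMD2, and also for PSMA1 and PSMC3. The 59 around PSME3 had a median of -0.23, against its rise of 0.82.

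Over all 43 members tested, the log2FC of the member and the median of its neighbours had a Pearson r of 0.71 and a Spearman rho of 0.68, and 30 pairs had the same sign (69.8%). Over 15060 genes with at least 5 tested neighbours, the values were 0.29, 0.41 and 65.4%. These are descriptions across genes of the same 10 libraries. Some members share neighbours, such as PSME1 with PSME2 and PSMB4 with PSMD4, and the neighbours of uncalled members were added after the data were seen. The part of the neighbourhood in the changes of the members was not tested.

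**Figure D4:**
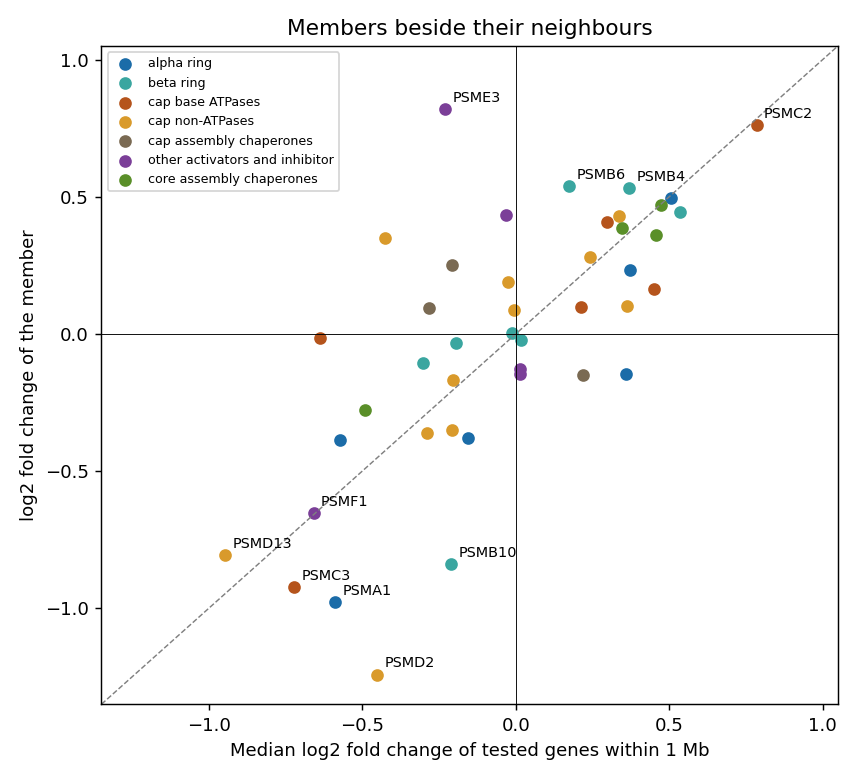
log2 fold change of each of the 43 members tested against the median over its tested neighbours within 1 Mb, coloured by structural group; the dashed line marks equal values and the called members are named. PSMB4, PSMC2, PSMC3, PSMD13 and PSMF1 lie near the line, PSMD2 and PSMB10 lie below it, and PSME3 lies above it on the other side of 0.

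The labelled cell type was read from markers. Of 14 urothelial and epithelial markers, 8 were tested. With TMM, the only scaling for which their calls are given, all 8 were called lower in T24R2, against 26.5% of all genes tested. Their summed level was 5005 to 5739 CPM in T24 and 3028 to 3232 CPM in T24R2, and most of it was the keratins KRT7, KRT8 and KRT18. The bladder keratin KRT19 was at 259 to 278 CPM in T24 and at most 0.26 CPM in T24R2. The terminal markers UPK1A, UPK1B, UPK3A and KRT20 and the basal markers KRT5 and TP63 did not pass the filter on low counts, and KRT20 was at 0 in every library. Leukocyte markers summed to at most 2.69 CPM in any library. Of 3 endothelial markers 2 were tested and both were lower, summing to 225 to 278 CPM in T24 and 1.60 to 2.50 CPM in T24R2, and CDH5 made up most of the sum in T24. The defining marker VWF was at or under 0.83 CPM in every library. Fibroblast markers summed to 5.62 to 7.27 CPM in T24 and 0.356 to 1.56 CPM in T24R2, with COL1A2, DCN and LUM at or near 0. The part of these marker differences in the values of the members was not tested.

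Reads of pseudogenes could be confused with those of the members. The tables hold 44 pseudogenes with PSM symbols, of which 25 had a count, and together they took 0.120% of the counts of all PSM genes. The most counted, PSMC1P1, had 20 counts per library on average, beside 1423 for PSMC1. Since the authors kept uniquely mapped reads, fragments that fit a gene and its copy equally well were not counted.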

How the data were processed

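RNA of T24 and T24R2 cells was sequenced in paired ends, in 5 libraries per line. Per the labels and the methods of the study, the authors used STAR 2.7.0 for alignment to hg38 and samtools 1.10 to retain unique, non-duplicate alignments, then assigned them to genes of GENCODE release 39. The deposited values are unnormalized fragment counts of each gene from featureCounts 2.0.1 with strand option 1, per the file headers. The kit is not described as strand-specific, so that option may leave out fragments and cannot separate antisense genes. Of the 61533 genes, 61369 were given a symbol by identifier, 33622 had a count and 0 rows lacked an identifier.

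Counts were tested on the whole table in R 4.3.3 with edgeR 4.0.16 (filterByExpr by line, TMM, glmQLFit, glmQLFTest), with Benjamini-Hochberg adjustment over 16181 genes. The thresholds were those of the study, which used DESeq2 and applied its shrinkage step to the log2FC. That step was not applied here, so the same fold minimum stands on a different estimate. Total counts of 9257843 to 10840954 limit precision, and standard errors of members ran from 0.043 to 0.17 (log2). Floors cover counting error only. Exact permutation tests compared CPM between the lines. Shared exon bases came from the exon coordinates in the tables, canonical transcripts from GENCODE release 44, and promoters from RefSeq (GRCh38.p14). Further steps used Python 3.11.15, numpy 2.4.6, pandas 2.3.3, SciPy 1.17.1 and matplotlib 3.10.9. The edgeR, DESeq2 and limma-voom fits were tested on simulated counts, and the other steps were not. Few genes changed in that simulation, and as many rose as fell, so it did not test the choice of scaling.

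The members, lists and tests were chosen with earlier results of these data known. Named with full values were the called members, the 3 constitutive protease subunits with PSMB10, the highest and lowest log2FC of each structural group, and up to 3 called genes of each pathway list. Genes named otherwise are given by log2FC or range. As alternatives, scaling was by library size, upper quartile or DESeq2 1.42.0 size factors, tests were DESeq2 and limma-voom (limma 3.58.1), and filters were none or a mean count of 100 or more, beside other fold minimums, a replicate block, removal of members with same-strand overlap, and leaving out each library. Removal by overlap, the count filters for single members and the added settings of the pathway genes were chosen after seeing the data. MeRIP libraries of the study were not analysed here.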

Additional observations from a re-analysis of the deposited data

Results flagged for a closer look

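In 86 comparisons of 5 libraries (43 members in each line), 7 had a highest or lowest library far from the rest by Dixon's criterion, where chance gives about 1 in 20, or 4.3. PSMC3, called lower, stood at 109.8 CPM in T24R2 replicate 1, while the other T24R2 libraries were at 97.5 to 101 CPM. PSMD13, called lower, stood at 237 CPM in T24 replicate 1, above the others at 214 to 220 CPM (219.5 at most). PSMB10, called lower, stood at 12.5 CPM in T24R2 replicate 5, above 10.2 to 10.9 CPM. None of these libraries reached the range of the other line.

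The uncalled members were PSMA3 at 97.8 CPM in T24R2 replicate 3 (the others 80.6 to 84.7), PSMD7 at 124.1 CPM in T24R2 replicate 3 (106 to 109.5), and PSMD6 at 88.4 CPM in T24 replicate 4 (93.4 to 95.2) and at 115.6 CPM in T24R2 replicate 1 (102 to 105). In PSMA3 that library lies within the T24 range. T24R2 replicates 1 and 3 each appear 2 times.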

How the results depend on the processing

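With DESeq2, limma-voom, DESeq2 scaling, no count filter and a mean of at least 100 counts, the counts of members called stayed within 1.5 times 4 higher and 6 lower. Members called higher rose to 13 with library size only, 9 with upper-quartile scaling and 18 with no fold minimum, and fell to 0 with a minimum of 1. Members called lower were 16 and 1 under those fold minimums, and pathway genes called 29 and 5, against 15. Leaving out each library gave 4 to 6 members higher, 6 to 6 lower and 14 to 15 pathway genes. PSMA4 passed the minimum without T24 replicate 1 or 2 or T24R2 replicate 1, 2 or 4 (0.50 to 0.51), and PSMG2 without T24 replicate 1 (0.51). PSMB5 changed sign with DESeq2 (-3.43e-05), with its scaling (-3.83e-05) and without single libraries (-0.017 to 0.056). PSMB7 (0.059) and PSMD10 (0.015) changed sign, and PSMF1 lost its call (-0.49), with library size only. The cause was not tested, other than that library size alone shifts all genes by 0.163.

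With the replicate number as a block, 4 members were higher, 6 lower and 15 pathway genes called, and it changed no call of a named member, although PSMB7 then passed the adjusted p lower (edgeR adjusted p = 0.0379). The numbers did not pair the libraries: same-number deviations correlated at -0.021 to 0.016, and not every library correlated best with its own number.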
